A study of Mus musculus with 12 samples.

Results

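A set of 9 genes that mark the transitional state of alveolar epithelium were followed in mouse lung after irradiation: the keratin genes Krt8, Krt18, Krt19 and Krt7, the claudin gene Cldn4, the 14-3-3 sigma gene Sfn, the integrin subunit gene Itgb6 and the EGF receptor ligand genes Areg and Hbegf. They were taken by symbol from the count files, and all 9 of 9 were found among 23238 gene symbols and passed the filter on low counts. RNA came from whole lung tissue in 12 samples, in 4 groups of 3. One group had no irradiation (NoIR). The other groups had been irradiated 8, 11 or 14 days earlier (IR_8d, IR_11d, IR_14d), and for them only irradiated areas of lung were sampled. The sources used here give no strain, age, sex or dose, and do not say which part of the lung the control tissue was. Replicates are numbered in the labels, but nothing says that they are different animals, and p-values then rest on a spread between samples that may be technical.

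When the gas-exchange surface is injured, alveolar type 2 cells, which make surfactant, can give rise to the flat alveolar type 1 cells. On the way they pass through a transitional state that is known in mouse lung for high Krt8, Cldn4 and Sfn, for p53 and TGF-beta target genes, and for an arrest of the cell cycle. Keratins 8 and 7 are type II and keratins 18 and 19 type I chains of the intermediate filaments of simple epithelia, and a filament needs a chain of each type. None of the 9 genes is specific to that state: the 4 keratins are also made by airway epithelium and mesothelium, amphiregulin by several leukocyte types, and HB-EGF by macrophages and endothelium. In whole tissue, a change in the number of cells of a type and a change in RNA per cell cannot be told apart.

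The libraries held between 19624554 and 27765751 counts, and 16484 genes entered the tests. Every unirradiated library held more counts (26164354 to 27765751) than every irradiated one (19624554 to 25524425), so depth differed along with irradiation. On the first principal component, which carried 53.1% of the variance, unirradiated libraries had scores of 76.68 to 86.94, and irradiated libraries had scores of -52.09 to 3.67. Replicate 1 of 11 d lay at -50.45, within the range of the 14 d libraries (-52.09 to -34.80), whereas replicates 2 and 3 lay at -23.03 and -25.56. The ribosomal RNA precursor Rn45s took between 1.71% and 2.91% of counts without irradiation and between 2.12% and 6.27% after it. Many genes changed in these lungs, so counts of called genes are to be read against the share of all tested genes called in the same comparison, given with the first count for each.

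At 8 d 4 of the 9 genes, Sfn, Itgb6, Hbegf and Krt18, were higher than in unirradiated lung and none was lower. A gene was called where edgeR's quasi-likelihood F test gave an adjusted p under 0.05, with adjustment over all tested genes. In that comparison 23.6% of all genes were called, 13% as higher and 10.6% as lower. At 11 d 7 of the 9 were higher and none lower, against 37.2% of all genes called, 19.4% higher and 17.8% lower. At 14 d 6 were higher and 1, Krt19, was lower, against 38.9% called, 20% higher and 18.9% lower. The median log2 change of the 9 was 0.60 at 8 d, 0.74 at 11 d and 0.60 at 14 d, while the median over all tested genes was 0.01, -0.01 and 0.01. Libraries of the 2 groups did not overlap for 6 of the 9 at 8 d, against 38.3% of all genes, for 7 at 11 d, against 54.9%, and for 8 at 14 d, against 50.8%. The genes did not share one time course, as the plots of their levels show. Some rose by 8 d and stayed up, Cldn4 was highest at 14 d, Hbegf was back near its starting level at 14 d, and Krt19 went down.

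**Figure D1:**
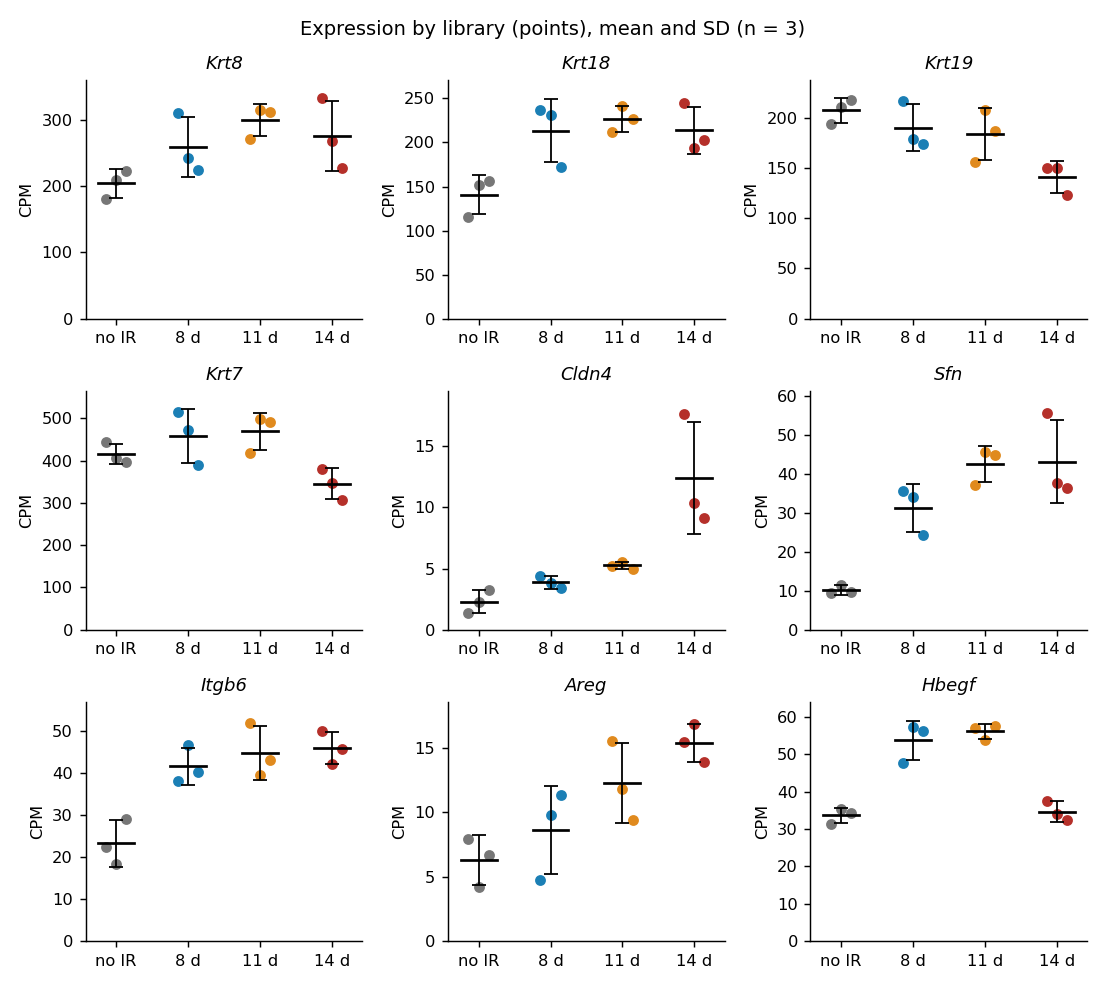
Expression of the 9 genes as CPM (counts scaled to library size, linear axis from 0) in each library. Points are libraries, bars are the mean and SD of 3 libraries. All irradiated libraries lie above all unirradiated ones for Krt8, Krt18, Cldn4, Sfn and Itgb6, the 14 d libraries of Hbegf overlap the unirradiated ones, and the 14 d libraries of Krt19 lie below them.

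Per kilobase of transcript the genes fell into a high and a low class in unirradiated lung. Krt19 stood highest with a level of 132 ± 7.77 CPM per kb (SD, n = 3), followed by Krt8 with 104 ± 11.2, Krt7 with 101 ± 5.91 and Krt18 with 98.0 ± 15.6. The last 3 differed by less than their spread. Hbegf had a level of 14.2 ± 0.852 CPM per kb, Sfn 6.29 ± 0.760, Areg 5.17 ± 1.59, Itgb6 4.84 ± 1.15 and Cldn4 1.26 ± 0.512, and Sfn, Areg and Itgb6 overlapped. At 14 d the order among the keratins had turned, with Krt18 at 149 ± 18.8 and Krt8 at 141 ± 27.2 CPM per kb and Krt19 at 89.4 ± 9.97. Lengths are those of the longest principal transcript in GENCODE M21, and levels are descriptions with no test. That length was 4094 bases for Krt7, 1958 for Krt8, 1576 for Krt19 and 1437 for Krt18, and the order of the keratins depends on it. Without division by length Krt7 stood highest in unirradiated lung, with 415 ± 24.2 CPM against 207 ± 12.2 for Krt19.

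RefSeq start regions (GRCm38.p6, the assembly of mm10) were at hand for 7 of the 9 genes, all but Krt19 and Hbegf. The 250 bases before the start are printed for Cldn4, Sfn and Areg, the members with the largest log2 change at 14 d, each 5′ to 3′ on the gene's strand, at chr5:134946935-134947184 (minus), chr4:133602169-133602418 (minus) and chr5:91139349-91139598 (plus). Capitals mark matches on either strand to the AP-1 motif TGANTCA, the cyclic AMP response element TGACGTCA, the TATA box TATAAA, the GC box GGGCGG and the TEAD motif GGAATG, and to the p53 decamer.
Cldn4: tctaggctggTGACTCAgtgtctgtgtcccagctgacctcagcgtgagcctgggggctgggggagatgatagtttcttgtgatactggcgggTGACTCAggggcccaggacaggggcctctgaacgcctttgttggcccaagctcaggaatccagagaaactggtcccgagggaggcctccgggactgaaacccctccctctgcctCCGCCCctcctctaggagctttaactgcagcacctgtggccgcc
Sfn: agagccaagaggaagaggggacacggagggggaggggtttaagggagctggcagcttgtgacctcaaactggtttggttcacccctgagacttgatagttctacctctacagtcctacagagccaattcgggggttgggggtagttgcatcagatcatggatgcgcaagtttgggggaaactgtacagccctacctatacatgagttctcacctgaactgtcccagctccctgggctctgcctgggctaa
Areg: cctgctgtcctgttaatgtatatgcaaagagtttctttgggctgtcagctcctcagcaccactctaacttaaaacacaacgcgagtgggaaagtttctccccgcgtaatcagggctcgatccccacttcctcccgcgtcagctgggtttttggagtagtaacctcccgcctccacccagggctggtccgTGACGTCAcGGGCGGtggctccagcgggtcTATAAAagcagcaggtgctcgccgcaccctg
The Cldn4 window held AP-1 matches starting 240 and 158 bases before the start and a GC box 44 bases before it. The Areg window held the cyclic AMP response element at 61 bases, a GC box at 52 and a TATA box at 31 bases before the start. The Sfn window held none of these letters. Over 32817 windows of the same length, 6.75% held an AP-1 match, 1.55% the cyclic AMP response element, 12.4% the TATA box, 32.7% the GC box, 12.6% the TEAD motif and 7.12% a p53 decamer. The windows of Krt8 and Krt18 and both windows of Itgb6 held none of the 6 motifs, and that of Krt7 held GC boxes only. These are matches of letters, with no measurement of binding.

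Krt8, the keratin that gives the transitional state its usual name, showed one of the smaller rises (mm10 chromosome 15, 101996698 to 102004482, minus strand). The unirradiated libraries had 180, 209 and 223 CPM, the 8 d libraries 310, 242 and 225, the 11 d libraries 272, 315 and 311, and the 14 d libraries 332, 268 and 227. No irradiated library fell to the unirradiated range, but the lowest at 8 d and at 14 d were within a few CPM of its top. The log2 change was 0.34 at 8 d (SE 0.16, adjusted p = 0.147), 0.55 at 11 d (SE 0.16, adjusted p = 0.0158) and 0.43 at 14 d (SE 0.16, adjusted p = 0.0475). The call at 14 d was lost without replicate 1 (adjusted p = 0.244, log2 change 0.28) or replicate 2 (0.0718) of 14 d, and without replicate 1, 2 or 3 of the unirradiated group (0.172, 0.091 and 0.0515). It was also lost with no filter (0.0521), with limma-voom (0.0504) and with the compared groups alone (0.0505). The call at 11 d was lost without replicate 1 of the unirradiated group (adjusted p = 0.0747) or replicate 2 of 11 d (0.0515). One test over all 4 groups called 7 of these 9 genes and 39.2% of all genes, and Krt8 was not among them (adjusted p = 0.0641).

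Krt18, which encodes the type I partner of keratin 8, rose at each time (chromosome 15, 102028180 to 102032027, plus strand). Its gene lies 23697 bases from Krt8, and the 2 are transcribed away from each other. Krt18 stood at 115, 152 and 156 CPM in the unirradiated libraries, 236, 232 and 172 in those of 8 d, 212, 242 and 227 in those of 11 d and 245, 194 and 203 in those of 14 d. Every irradiated library was above every unirradiated one. Its log2 change was 0.60 at 8 d (SE 0.16, adjusted p = 0.0131), 0.69 at 11 d (SE 0.16, adjusted p = 0.0035) and 0.60 at 14 d (SE 0.16, adjusted p = 0.00717). Without replicate 1 of the unirradiated group, the lowest library, the change at 8 d was 0.47 with an adjusted p of 0.0732.

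The levels of the 2 partner genes varied together (Pearson r of log2 CPM 0.89 over the 12 libraries and 0.77 over the 9 irradiated ones). Their ratio was nevertheless somewhat lower after irradiation. The count ratio of Krt8 to Krt18 was 1.57, 1.38 and 1.43 in the unirradiated libraries with a mean of 1.46 ± 0.0959 (SD, n = 3). It was 1.22 ± 0.152 at 8 d, 1.32 ± 0.0482 at 11 d and 1.29 ± 0.146 at 14 d. Over the 9 irradiated against the 3 unirradiated libraries the ratio was 0.872-fold, and 8 of the 9 lay below all 3 unirradiated ones (two-sided exact permutation test, p = 0.0182, adjusted p = 0.0273 over 9 ratios).

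Krt19, a small type I keratin that is also an airway and mesothelial gene, was the member that fell (chromosome 11, 100140810 to 100148665, minus strand). It had 194, 211 and 218 CPM without irradiation, 217, 179 and 174 at 8 d, 156, 208 and 187 at 11 d and 150, 150 and 123 at 14 d. The groups overlapped at 8 d and 11 d and were separate at 14 d, all 14 d libraries being lower. Krt19 had a log2 change of -0.13 at 8 d (SE 0.14, adjusted p = 0.558), -0.18 at 11 d (SE 0.14, adjusted p = 0.339) and -0.56 at 14 d (SE 0.14, adjusted p = 0.00531).

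Krt7, a type II keratin of simple and glandular epithelia, was not called in any comparison in the edgeR fit of all 12 libraries (chromosome 15, 101411043 to 101430313, plus strand). Its libraries had 443, 406 and 398 CPM without irradiation, 514, 472 and 389 at 8 d, 419, 498 and 491 at 11 d and 381, 347 and 308 at 14 d. The 14 d libraries were all below the unirradiated ones and all below the 8 d and 11 d ones. The log2 change of Krt7 was 0.14 at 8 d and 0.18 at 11 d. At 14 d it was -0.27, with a 95% interval of -0.56 to 0.03 and an adjusted p of 0.148. Against 8 d the change at 14 d was -0.41 (adjusted p = 0.0616), which DESeq2 called (0.0218), as did edgeR on library size alone (0.0373) or without replicate 3 of 8 d (0.042). Against 11 d it was -0.44 (adjusted p = 0.127), also called by DESeq2 (0.0337). Krt7 overlaps the antisense gene Gm671, and Krt8 the long non-coding RNA gene Gm36026 on the other strand. No strand setting is given for the counting, so reads from these partners cannot be told apart.

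Sfn had the lowest p of the 9 at each time against unirradiated lung (chromosome 4, 133600556 to 133602168, minus strand). It encodes 14-3-3 sigma, an epithelial p53 target that holds cyclin-dependent kinases out of the nucleus. It had 9.31, 11.6 and 9.58 CPM in the unirradiated libraries, 35.7, 33.9 and 24.3 in those of 8 d, 37.1, 45.6 and 44.8 in those of 11 d and 55.5, 37.5 and 36.4 in those of 14 d. The lowest irradiated library had more than the highest unirradiated one by a wide margin. Its level was 3.08-fold at 8 d (log2 change 1.62, SE 0.19, adjusted p = 5.61e-05), 4.18-fold at 11 d (2.07, SE 0.20, adjusted p = 3.91e-06) and 4.25-fold at 14 d (2.09, SE 0.20, adjusted p = 1.85e-06). The 6 other 14-3-3 genes, which are expressed in most cell types, had a median log2 change of -0.05 at 8 d, 0.11 at 11 d and -0.02 at 14 d. None of them was called at 8 d, Ywhae and Ywhag were higher at 11 d, and Ywhag was at 14 d.

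Cldn4 was the member with the largest change at 14 d (chromosome 5, 134945119 to 134946934, minus strand). It encodes a tight junction claudin that is scarce in resting alveoli and appears in injured ones. Its libraries had 1.36, 2.29 and 3.22 CPM without irradiation, 4.40, 3.83 and 3.38 at 8 d, 5.24, 5.53 and 4.98 at 11 d and 17.6, 10.4 and 9.14 at 14 d. Each group lay above the one before it, with no overlap between neighbouring groups. Counts were low, 187 over the 3 unirradiated libraries together and 885 at 14 d. Against unirradiated lung its log2 change was 0.75 at 8 d (SE 0.30, adjusted p = 0.0865), 1.20 at 11 d (SE 0.30, adjusted p = 0.00605) and 2.43 at 14 d (SE 0.30, adjusted p = 1.6e-05), the last a 5.38-fold level. Leaving out replicate 3 of the unirradiated group, its highest library, gave 1.07 and a call at 8 d (adjusted p = 0.0276).

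Of 12 other claudin genes 11 were tested, and at 14 d 2 were higher and 5 lower, against 20% and 18.9% of all genes. The higher ones were Cldn1, with a log2 change of 0.70, and Cldn2, which had 5, 7 and 13 counts without irradiation and 41, 34 and 23 at 14 d and passed the filter only through irradiated libraries. The lower ones included Cldn18, the main alveolar claudin, with -0.73 (SE 0.11), Cldn5, an endothelial claudin, with -1.77 (SE 0.22), and Cldn15 with -2.88 (SE 0.43). Cldn3, which like Cldn4 is made by alveolar epithelium, had a log2 change of -0.58 and was not called.

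Itgb6 rose by 8 d and then kept its level (chromosome 2, 60598292 to 60722643, minus strand). It encodes the epithelial beta-6 chain that pairs with alpha-v integrin and activates latent TGF-beta. The libraries had 22.4, 18.2 and 29.2 CPM without irradiation, 38.2, 46.7 and 40.2 at 8 d, 52.0, 39.5 and 43.2 at 11 d and 49.96, 42.3 and 45.7 at 14 d. All irradiated libraries were above all unirradiated ones, and the 3 irradiated groups overlapped each other. Its log2 change was 0.84 at 8 d (SE 0.17, adjusted p = 0.00249), 0.95 at 11 d (SE 0.17, adjusted p = 0.000579) and 0.98 at 14 d (SE 0.17, adjusted p = 0.000332).

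The genes of its partner chain and of TGF-beta1 rose as well. Itgav, which encodes alpha-v, went from 58.2 ± 9.54 CPM (SD, n = 3) to 89.0 ± 12.6 at 8 d, 84.3 ± 11.6 at 11 d and 131 ± 22.9 at 14 d, and was called at each time. Tgfb1, the gene of the TGF-beta1 precursor, had log2 changes of 0.38, 0.65 and 0.80, all called. Itgb5, the gene of another alpha-v partner, stood at 91.6 ± 4.48 CPM without irradiation (SD, n = 3). It had 70.7 ± 14.9 CPM at 8 d, 104 ± 20.5 at 11 d and 202.5 ± 24.95 at 14 d. Which beta chain alpha-v pairs with was not measured. Itgb8, whose product also pairs with alpha-v and activates TGF-beta, had 6, 4 and 11 counts without irradiation and 41, 29 and 35 at 14 d, and passed the filter only through irradiated libraries. Of the 9 genes in this list of alpha-v partners, TGF-beta and its latency proteins, 4 were higher and 2 lower at 14 d (20% and 18.9% of all genes), the lower ones being Ltbp1 and Lrrc32.

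**Figure D2:**
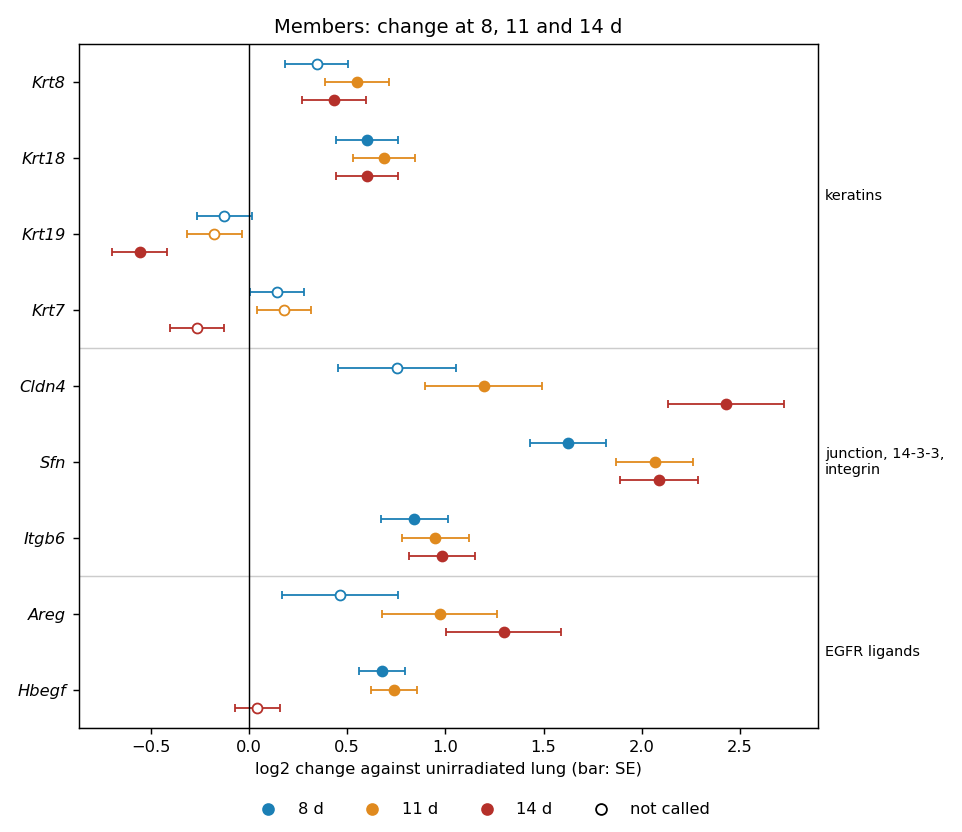
Log2 change of the 9 genes against unirradiated lung at 8, 11 and 14 d, with bars for the standard error of the edgeR fit. Filled points passed an adjusted p of 0.05 over all genes and open points did not. The changes at 14 d run from -0.56 for Krt19 to 2.43 for Cldn4.

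The ligand genes Areg and Hbegf, whose products bind the EGF receptor after release from the cell surface, moved at different times. Areg (chromosome 5, 91139599 to 91148432, plus strand) had 7.95, 4.17 and 6.72 CPM without irradiation, 4.78, 9.77 and 11.4 at 8 d, 15.6, 11.8 and 9.44 at 11 d and 15.5, 16.9 and 13.9 at 14 d. It overlapped the unirradiated range at 8 d and was above it at 11 d and 14 d. Areg had a log2 change of 0.46 at 8 d (SE 0.30, adjusted p = 0.287), 0.97 at 11 d (SE 0.29, adjusted p = 0.0183) and 1.30 at 14 d (SE 0.29, adjusted p = 0.00275). The call at 11 d was lost without replicate 1 of 11 d (0.76, adjusted p = 0.0945) or replicate 2 of the unirradiated group (0.74, adjusted p = 0.0824).

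Hbegf (chromosome 18, 36504927 to 36515805, minus strand) was up early and down again at the last time. It had 31.4, 35.3 and 34.3 CPM without irradiation, 47.7, 57.3 and 56.2 at 8 d, 57.1, 53.8 and 57.5 at 11 d and 37.6, 34.1 and 32.3 at 14 d. The 8 d and 11 d libraries were all above the unirradiated range, and the 14 d libraries overlapped it. Hbegf had a log2 change of 0.68 at 8 d (SE 0.12, adjusted p = 0.000837), 0.74 at 11 d (SE 0.12, adjusted p = 0.000224) and 0.04 at 14 d (95% interval -0.21 to 0.29, adjusted p = 0.806). The count ratio of Areg to Hbegf was 0.190 ± 0.0678 in the unirradiated libraries (SD, n = 3), 0.158 ± 0.0523 in those of 8 d, 0.219 ± 0.0544 in those of 11 d and 0.446 ± 0.0429 in those of 14 d. Over all 9 irradiated libraries it was 1.35-fold and did not pass (two-sided exact permutation test, adjusted p = 0.47 over 9 ratios).

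Among the other EGF receptor ligands, epiregulin had higher values and betacellulin fell. Ereg went from 0.382 ± 0.155 CPM (SD, n = 3) to 0.892 ± 0.171 at 8 d, 1.71 ± 0.345 at 11 d and 2.90 ± 0.476 at 14 d, with log2 changes of 1.21, 2.15 and 2.91. It had 9, 15 and 7 counts without irradiation and passed the filter only through irradiated libraries. Btc had log2 changes of -0.41, -0.64 and -0.73 and was called at 11 d and 14 d. Tgfa and Egf were not called at any time, and Epgn was under the filter. The receptor gene Egfr stood at 16.5 ± 3.06 CPM without irradiation and 15.1 ± 3.20 at 14 d, and its log2 changes of -0.27, -0.35 and -0.13 were not called. Erbb2, which encodes the shared co-receptor, changed by -0.69 at 11 d and -0.80 at 14 d (both called), and Erbb3 by -0.82 at 11 d (called) and -0.25 at 14 d (adjusted p = 0.377).

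Of 4 genes for release of these ligands 3 were higher and 1 lower at 14 d, and genes that report ERK signalling were called in both directions. Adam17, the protease that sheds amphiregulin and HB-EGF, went from 66.3 ± 2.75 CPM (SD, n = 3) to 83.4 ± 2.73 at 8 d, 127 ± 27.8 at 11 d and 146 ± 5.09 at 14 d, with log2 changes of 0.33 (adjusted p = 0.0972), 0.93 and 1.14, the last 2 called. Rhbdf2, which encodes an iRhom that carries ADAM17 to the surface, rose by 0.88, 0.69 and 0.76, and Rhbdf1 changed by -0.69 at 11 d and -0.78 at 14 d (both called). Of 13 ERK feedback and target genes 4 were higher and 1 lower at 8 d, when 13% and 10.6% of all genes were. At 11 d 1 was higher and 3 lower, against 19.4% and 17.8%, and at 14 d 1 and 6, against 20% and 18.9%. The higher one at 11 d and 14 d was Etv4, which had 5, 1 and 5 counts without irradiation and 24, 46 and 48 at 14 d, and passed the filter only through irradiated libraries. The feedback inhibitor gene Spry1 changed by -1.07 at 11 d and -1.40 at 14 d. Of 9 monocyte and macrophage markers 5 were higher and 1 lower at 8 d, and all 9 were higher at 14 d. Their summed level was 8058 to 8876 CPM in unirradiated lung. After 8 d it was 6802 to 7923 CPM, after 11 d 9902 to 15060 and after 14 d 18610 to 23760. Most of it was Lyz2, a lysozyme gene that type 2 cells also express, with 7916 ± 414 CPM without irradiation and 6340 ± 549 at 8 d (SD, n = 3, not called). Ccr2 and Itgam, of monocytes and other myeloid cells, rose from 14.1 ± 3.79 to 84.0 ± 18.2 CPM and from 22.5 ± 5.67 to 84.7 ± 17.9 CPM over the same interval. Of 7 blood endothelial markers 3 were lower at 8 d, 6 at 11 d and all 7 at 14 d, and none was higher. Of all genes 10.6%, 17.8% and 18.9% were lower at these times. The summed level of the 7 markers was 3313 to 3659 CPM without irradiation and 892 to 1146 at 14 d. The part of these cell types in the ligand, protease and integrin genes was not tested.

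**Figure D3:**
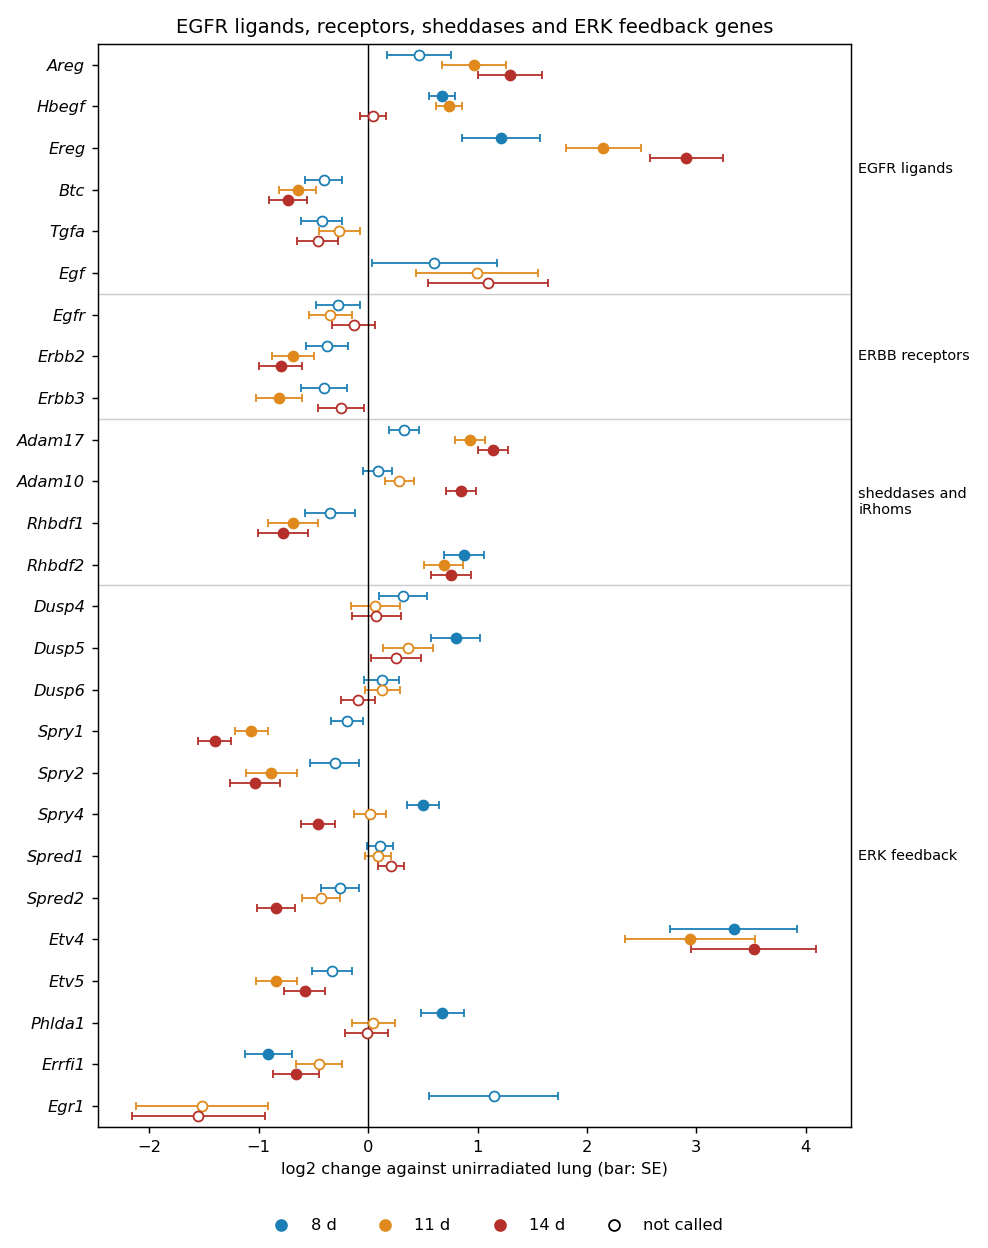
Log2 change against unirradiated lung at 8, 11 and 14 d for tested EGF receptor ligands, ERBB receptors, sheddases with their iRhom carriers, and ERK feedback genes, with bars for the standard error. Filled points passed an adjusted p of 0.05 over all genes. Areg and Ereg are highest at 14 d, when Hbegf stands at 0.04 and Spry1 at -1.40.

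Between the irradiated times few members changed. From 8 d to 11 d none of the 9 was called, against 2.14% of all genes (1.75% higher and 0.394% lower). That share rests on 353 genes, a count that ran from 2 to 545 with 1 library left out, and was 2 without replicate 3 of 8 d. The groups of Cldn4 and Sfn did not overlap there, nor did those of 18.3% of all genes. The lowest unadjusted p in that comparison was that of Sfn, 0.0334, the only one of the 9 under 0.05, with a log2 change of 0.44 (95% interval 0.04 to 0.84). DESeq2 and limma-voom also called 0 of the 9. From 11 d to 14 d Cldn4 was higher, by 1.23 (SE 0.28, adjusted p = 0.0407), and Hbegf lower, with a change of -0.70 (SE 0.12, adjusted p = 0.0119), against 1.8% of all genes called, 0.813% higher and 0.983% lower. That share rests on 296 genes, 13 to 681 with 1 library left out, and 13 without replicate 1 of 14 d. The libraries of 4 members, Cldn4, Hbegf, Krt19 and Krt7, did not overlap, nor did those of 21.7% of all genes. The Cldn4 call was lost without any 1 of replicates 1, 2 and 3 of 11 d (adjusted p = 0.0592, 0.173 and 0.179) or replicates 1 and 2 of 14 d (0.23 and 0.0742), and the Hbegf call without replicates 2 or 3 of 11 d (0.067 and 0.0635) or replicate 1 of 14 d (0.0562). From 8 d to 14 d Cldn4 was higher by 1.67 (SE 0.29, adjusted p = 0.00135), and Hbegf and Krt19 were lower, with changes of -0.63 (SE 0.12, adjusted p = 0.00226) and -0.43 (SE 0.14, adjusted p = 0.0497), against 15.4% of all genes, 8.1% higher and 7.29% lower. The Krt19 call was lost when any 1 library of 8 d or 14 d was left out (adjusted p from 0.05 to 0.159), with median-of-ratios scaling (0.051), with no filter (0.0608) and with the compared groups alone (0.0972). Areg was higher in all 14 d than in all 8 d libraries, with a log2 change of 0.83 that did not pass in edgeR (SE 0.29, adjusted p = 0.0681) and passed in DESeq2 (0.0328) and limma-voom (0.0452). Groups did not overlap for 6 members in that comparison, and for 30% of all genes. For Krt8, Krt18 and Itgb6 the 95% intervals of the change from 8 d to 14 d ran from -0.26 to 0.44, from -0.33 to 0.34 and from -0.22 to 0.50, so changes of that size between the times cannot be told from none.

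Of the members 5 were also higher relative to a general epithelial gene. Epcam, an adhesion gene of most epithelia, had 98.8 ± 5.08 CPM in unirradiated lung (SD, n = 3) and 84.9 ± 10.7, 85.4 ± 2.36 and 83.0 ± 9.48 CPM at the 3 times, and was not called at any time (log2 changes -0.22, -0.21 and -0.25). Every irradiated library (74.03 to 95.44 CPM) was nevertheless below every unirradiated one (95.58 to 104.6 CPM). Relative to Epcam counts in the same library, Sfn was 4.42-fold higher over the 9 irradiated than over the 3 unirradiated libraries, Cldn4 3.37-fold, Itgb6 2.26-fold, Krt18 1.82-fold and Krt8 1.59-fold. All 9 irradiated libraries lay above all 3 unirradiated ones for each of these 5 ratios. This follows from the separate groups of the 5 genes and of Epcam and is no further test. The ratio of Krt7 to Epcam was 1.18-fold (permutation p = 0.182, adjusted p = 0.234) and that of Krt19 0.958-fold (permutation p = 0.655, adjusted p = 0.655). These pooled values join times that differed. Krt7/Epcam was 4.22 ± 0.416 without irradiation (SD, n = 3), 5.48 ± 1.28 and 5.49 ± 0.437 at 8 d and 11 d, and 4.19 ± 0.580 at 14 d. Krt19/Epcam at 14 d (1.60 to 1.90) lay below all unirradiated libraries (2.03 to 2.19). A ratio within a library does not depend on how libraries are scaled.

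**Figure D4:**
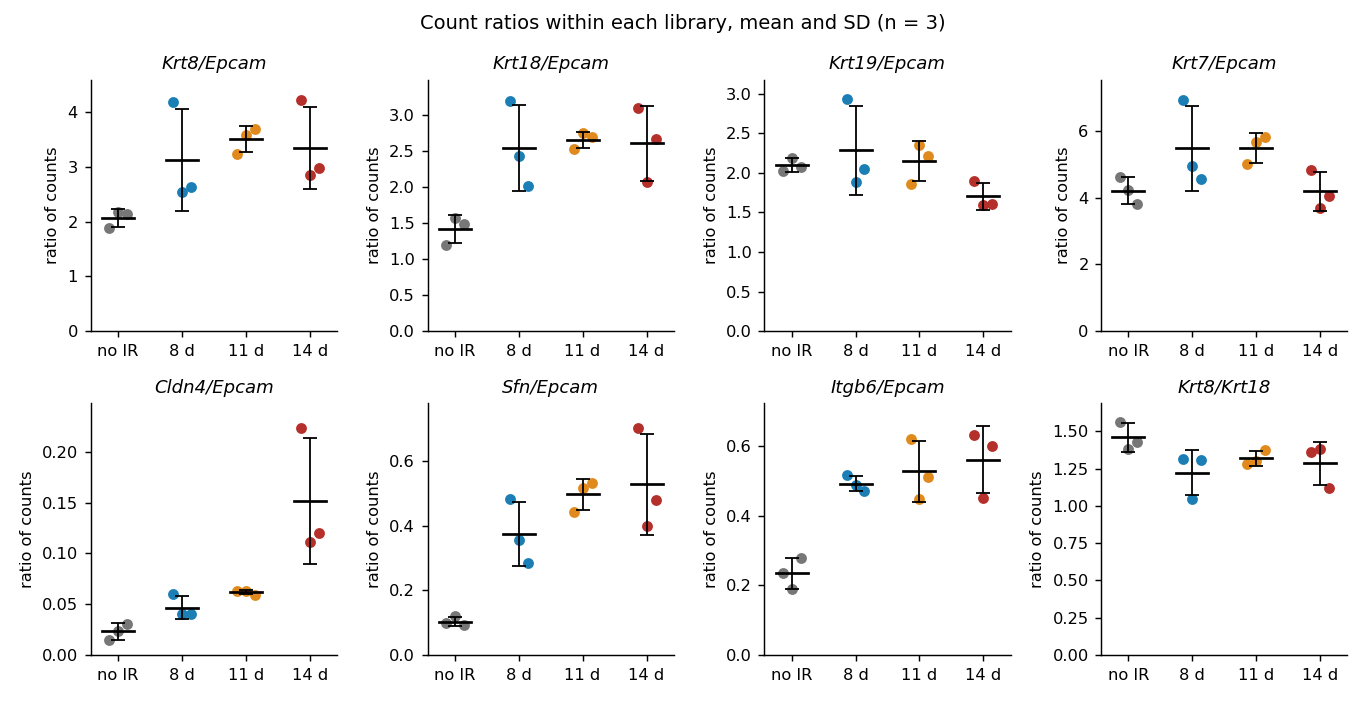
Ratio of the count of each gene to the count of Epcam in the same library, and of Krt8 to Krt18, on linear axes from 0. Points are libraries and bars the mean and SD of 3 libraries. Sfn/Epcam lies between 0.0917 and 0.120 without irradiation and between 0.285 and 0.703 after it, whereas Krt19/Epcam overlaps at 8 d and 11 d.

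Some markers of the epithelial and mesothelial cells that also hold these keratins were lower in the same libraries. Of all genes 18.9% were lower and 20% higher at 14 d. Alveolar type 2 markers were lower in 5 of 12 at 14 d and higher in none, and at 11 d 5 were lower and 2 higher. The change of Sftpc, which encodes surfactant protein C, was -0.89 on the log2 scale at 14 d (SE 0.20). Alveolar type 1 markers were lower in 5, 8 and 10 of 12 at the 3 times and higher in 1, 1 and 0, Ager, a receptor gene of type 1 cells, going from 3586 ± 241 to 1799 ± 238 CPM at 14 d (SD, n = 3) and Clic5 changing by -1.61 on the log2 scale (SE 0.14). Each of 8 mesothelial markers was lower at 11 d and 14 d. Their summed level lay between 401 and 509 CPM without irradiation and between 65.3 and 97.2 at 14 d, and Msln, the mesothelin gene, fell from 104 ± 4.62 to 20.1 ± 8.53 CPM (SD, n = 3). Club cell markers were lower in 4 of 8 at 14 d and higher in none. Ciliated cell markers were lower in 2 of 8, near the share of all genes, and 6 were not called. Tppp3 went from 376.5 ± 36.5 to 94.7 ± 22.9 CPM, while Foxj1, the regulator of motile cilia, stood at 39.3 ± 5.97 and 38.5 ± 14.8 (SD, n = 3). Of 12 general epithelial genes 1 was higher (St14, 0.86) and 4 were lower at 14 d. No marker of these lists was at 0 in any group. The part of these cell types in the levels of Krt19, Krt7, Krt8 and Krt18 was not tested.

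**Figure D5:**
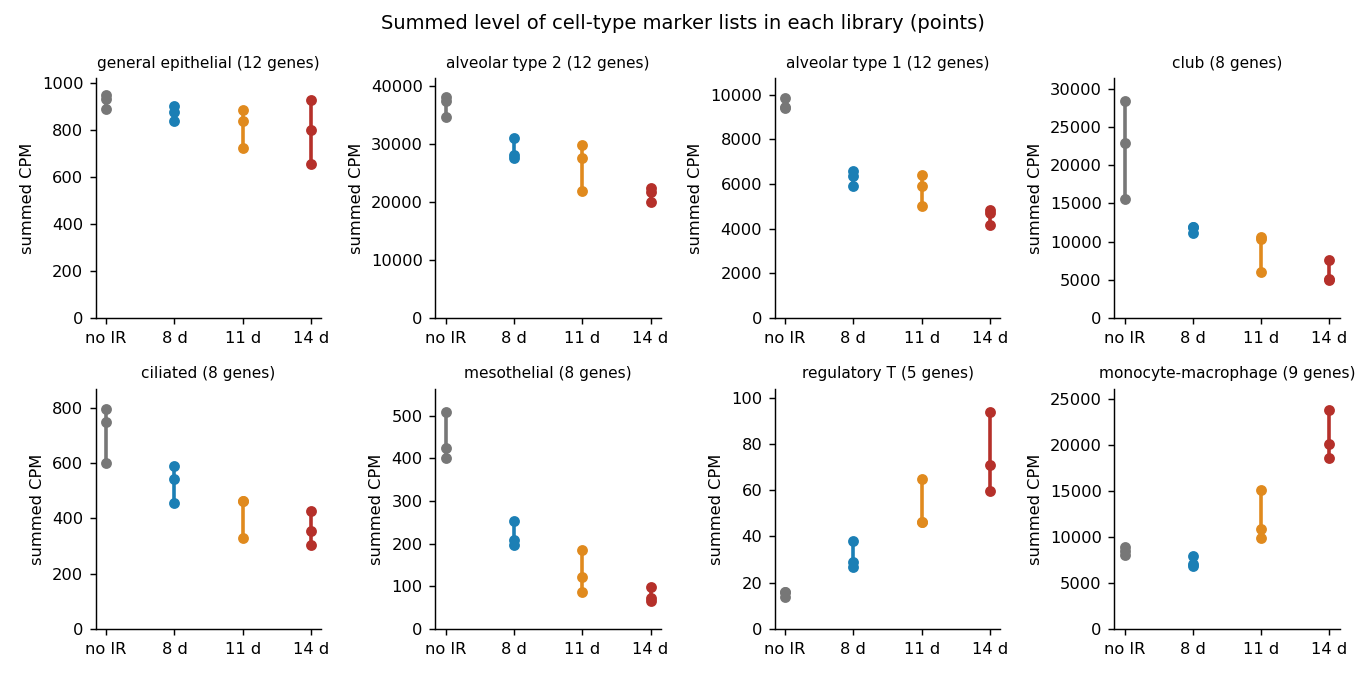
Summed CPM of marker lists in each library (points, joined by their range within a group) for 8 kinds of cell, on linear axes from 0. The alveolar, club, ciliated and mesothelial sums are lower at 14 d than without irradiation, the ciliated one mostly through Tppp3, the regulatory T cell and macrophage sums are highest at 14 d, and the general epithelial sums at 8 d and 14 d overlap those without irradiation.

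Keratins of basal and squamous cells did not rise as a group. Of 13 other keratin genes only 7 passed the filter, and 1, Krt6a, was higher and 3 were lower at 14 d. Krt5, the defining keratin of airway basal cells, had 10 counts over the 3 unirradiated libraries and 26 over those of 14 d, 22 of them in replicate 2, and was under the filter. Krt6a, a keratin of wounded squamous epithelium, was at 0 counts in the unirradiated libraries and had 12, 40 and 13 counts at 14 d. It passed the filter only through the 14 d libraries, so its call adds nothing to these counts. Krt79 was at 21.1 ± 3.15 CPM without irradiation and 1.39 ± 0.812 at 14 d (SD, n = 3), with a log2 change of -3.91 (SE 0.41). Basal cell markers summed to between 8.59 and 12.8 CPM without irradiation, 12 and 22.4 at 8 d, and 12.3 and 15.1 at 14 d. Of 5 tested, 2 were higher and 0 lower at 8 d, with a median log2 change of 1.13, and 1 was higher and 1 lower at 14 d. Trp63 among them had 13, 11 and 34 counts without irradiation and Krt15 had 1, 0 and 36. Both passed the filter only through irradiated libraries, so they add nothing to the counts of higher markers or to that median. Ngfr, which other cells also express, made up 6.70 ± 0.449 CPM of the sum without irradiation (SD, n = 3).

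Other genes linked to the transitional state rose in larger number than they fell. Of 20 such genes 12 were higher and 0 lower at 8 d, 12 and 1 at 11 d, and 11 and 1 at 14 d. The shares of all genes called higher were 13%, 19.4% and 20%. The lower one was Krt23. The median log2 change was 0.74, 0.60 and 0.86 at the 3 times. Sprr1a, a cornified envelope gene, went from 0.457 ± 0.164 CPM (SD, n = 3) to 4.88 ± 1.08, 9.62 ± 1.42 and 9.08 ± 0.782. Sprr1a had 17, 11 and 9 counts without irradiation and Gdf15 had 3, 10 and 15. Both passed the filter only through irradiated libraries, so their calls add nothing to these counts of higher genes. Cdkn1a, the p53-induced arrest gene, had its highest mean at 8 d, 287 ± 6.22 CPM from 24.8 ± 4.86, and a lower one at 14 d, 156 ± 13.3 (log2 change from 8 d -0.88, SE 0.17, adjusted p = 0.00268). Sfn, also a p53 target, had a log2 change of 0.46 from 8 d to 14 d (95% interval 0.06 to 0.86, adjusted p = 0.117). Lcn2, Gdf15 and Lgals3 of this list are also made by leukocytes or other injured cells.

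Markers of leukocyte types that can make amphiregulin changed as well. All 5 regulatory T cell markers were higher at 11 d and 14 d, and their summed level went from between 13.7 and 16.1 CPM without irradiation to between 59.7 and 93.8 at 14 d. Ctla4 among them had 6, 10 and 3 counts without irradiation and passed the filter only through irradiated libraries. Il1rl1 is the IL-33 receptor gene of type 2 innate lymphoid cells, regulatory T cells and mast cells. It rose by 1.35 at 11 d and 2.12 at 14 d (SE 0.24 for each). Klrg1 of the same list went from 0.592 ± 0.123 to 2.76 ± 0.328 CPM at 14 d (SD, n = 3), while Gata3 and Rora were lower. This list, which includes Areg itself, had 3 of 6 tested genes higher and 3 lower at 14 d. Of all genes 20% were higher and 18.9% lower. The cytokine genes Il5 and Il13 were under the filter. Mast cell and basophil markers were higher in 5 of 7 and lower in 2 of 7 at 14 d, the lower ones being Kit and Gata2, which endothelium also expresses. Without irradiation those 2 stood at 188 ± 10.8 and 123 ± 37.5 CPM (SD, n = 3). Among the higher markers, Cpa3 had 9, 9 and 26 counts without irradiation, Mcpt8 0, 0 and 1, Fcer1a 0, 3 and 6 and Ms4a2 5, 5 and 12. Each of them passed the filter only through irradiated libraries, so their calls add nothing to the count of higher markers. The summed level of the list was lower at 14 d (128 to 137 CPM) than without irradiation (313 to 360). The part of these cells in the rise of Areg was not tested.

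By Pearson correlation of log2 CPM over the 12 libraries, among 12028 genes whose mean was 5 CPM or more, the genes most like each member differed between members. Those most like Sfn were Itgb7, Gpr132 and Kcnn4 (r = 0.98 for each), and Tmem154 was among those most like Cldn4 (0.97). Krt19 was most like Pcyt2 and Tecr (0.97 for each), Areg most like Adam9 (0.96) and Hbegf most like Icam1 (0.91). The 12 libraries include the step between unirradiated and irradiated lung, so the values are descriptions.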

How the data were processed

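The deposited values are whole-number counts per gene symbol, 1 table of 23282 lines per sample. Per the submitters' processing notes the authors aligned reads with TopHat to mm10. The counting program, annotation, strand setting and versions were not given in the sources used here. Trizol RNA went into NEBNext Ultra II Directional libraries, per the labels' protocols. Counts on repeated symbols (35 symbols) were summed, which left 23238 symbols. All 12 samples were fitted together with edgeR 4.0.16 in R 4.3.3 (default expression filter, TMM scaling, quasi-likelihood F test), with Benjamini-Hochberg adjustment over the 16484 genes tested and a threshold of 0.05. Standard errors were taken from the log2 change and F, 95% intervals from the t distribution with the fit's degrees of freedom, and CPM use scaled library sizes. Values after ± are SD over 3 libraries. The 9 ratios were compared as log2 of counts plus 0.5 with exact permutation tests. The members, lists and ratios were chosen with earlier results of these data known. Named list genes are those with the lowest joint p, up to 4 per list, with Epcam, Sftpc, Ager, Egfr, Itgav, Msln and Cdkn1a. Other list genes printed were chosen after their values were seen. They are Cldn1, Cldn2, Cldn3, Itgb8, Ltbp1, Krt5, Krt23, Rora, Il5, Il13, Epgn, Lgals3, Ywhae, Lyz2, Foxj1, Ngfr, Mcpt8, Fcer1a and Ms4a2. Alternatives were DESeq2 1.42.0, limma-voom (limma 3.58.1), other scalings, filters and designs, and leaving out each library. Tested on simulated counts of 16347 genes for 8 d against no irradiation, the method recovered 27.4% of 1.5-fold changes, 71.4% of 2-fold changes and 98.5% of 4-fold changes, with 9 false calls among 143. Only 62, 70 and 68 genes were changed by these folds, all with a mean above 2 CPM. That is a smaller share than was called in the data, so recovery in the data can differ. Coordinates and transcript lengths are from GENCODE M21.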

Additional observations from a re-analysis of the deposited data

Results flagged for a closer look

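The effect of irradiation on 3 of the 9 genes differed between times by a direct test of one irradiated time against another (edgeR quasi-likelihood test, n = 3 libraries per time). Of all genes 1.8% were called between 11 d and 14 d and 15.4% between 8 d and 14 d. Cldn4 was higher at 14 d than at 11 d, by 1.23 on the log2 scale (adjusted p = 0.0407), and than at 8 d, by 1.67 (adjusted p = 0.00135), in all 3 libraries of 14 d. Hbegf was lower at 14 d than at 11 d, with a log2 change of -0.7 (adjusted p = 0.0119), and than at 8 d, with -0.63 (adjusted p = 0.00226), again in all 3 libraries. Krt19 was lower at 14 d than at 8 d, with -0.43 (adjusted p = 0.0497), in all 3 libraries. The Krt19 call was lost without any 1 library of 8 d or 14 d (adjusted p from 0.05 to 0.159), and that of Cldn4 between 11 d and 14 d in 5 of the 6 cases with 1 library of those times left out (0.0592 to 0.23). With the replicate number as a block neither was called (0.0663 and 0.0558). The Hbegf call between 11 d and 14 d was lost in 3 of these 6 cases (0.0562 to 0.067).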

How the results depend on the processing

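Against no irradiation, the calls of Sfn and Itgb6 at each time and of Hbegf at 8 d and 11 d held in every alternative run. So did those of Cldn4 and Krt18 at 11 d and 14 d, and of Areg and Krt19 at 14 d. For Krt18 the highest adjusted p with a library left out was 0.0221 at 11 d and 0.0432 at 14 d. The count of all genes called between irradiated times depended on the tool and on single libraries. For 11 d against 8 d it was 353, with 868 by DESeq2, 143 with the compared groups alone, and 2 to 545 when each library was left out (2 without replicate 3 of 8 d). For 14 d against 11 d it was 296, with 827 by DESeq2 and 13 to 681 with a library left out. For 14 d against 8 d it was 2536, and 1392 to 2548 with a library left out. For 8 d against no irradiation it was 3891, and 2593 to 3544 with a library left out. Of the 9 genes, 2 were called between 11 d and 14 d, and 0 to 2 with a library left out. Between 8 d and 14 d 3 were called, 5 by DESeq2, and 2 to 3 with a library left out.

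Deviations of same-numbered libraries were little correlated in most cases (18 pairs, r from -0.31 to 0.26, median 0.05). Between 8 d and unirradiated libraries, same-numbered pairs had r of 0.16, 0.07 and 0.17, and differently numbered pairs had -0.18 to -9e-04. Between 8 d and 11 d, same-numbered pairs had r of -0.11, -0.11 and 0.09. Because the sign differed between groups, these values cannot decide whether the numbers pair samples. With the replicate number as a block, 1 of the 9 was called between 11 d and 14 d, and Krt8 at 14 d (adjusted p = 0.0718), Cldn4 between 11 d and 14 d (0.0558) and Krt19 between 8 d and 14 d (0.0663) were not called.

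Directions turned only for changes near 0 that were not called, and the cause was not tested. With library size alone, the change from 8 d to 11 d was -1e-04 for Krt18, -0.0558 for Krt7 and -0.0306 for Hbegf, and from 8 d to 14 d -0.0527 for Krt18, which was -0.003 with the compared groups alone. With a library left out, the change from 8 d to 11 d ran from -0.0445 to 0.1691 for Krt18, -0.1484 to 0.054 for Krt19, -0.0716 to 0.1243 for Krt7, -0.0126 to 0.196 for Itgb6 and -0.0171 to 0.1116 for Hbegf. From 8 d to 14 d it ran from -0.0675 to 0.2376 for Krt8 and -0.1317 to 0.0818 for Krt18. From 11 d to 14 d it ran from -0.2757 to 0.0028 for Krt8, -0.1999 to 0.1291 for Sfn and -0.0511 to 0.1534 for Itgb6. Hbegf at 14 d against no irradiation ran from -0.0203 to 0.0908.

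With a library left out, the log2 ratio to Epcam ran from 0.6021 to 0.7126 for Krt8, 0.7483 to 0.944 for Krt18, 1.4435 to 1.9953 for Cldn4, 2.0634 to 2.2596 for Sfn and 1.0322 to 1.3095 for Itgb6, and that of Krt8 to Krt18 from -0.2373 to -0.1462. With an unirradiated library left out, which leaves 9 against 2 libraries, none of these ratios passed after adjustment. Fewer libraries raise the smallest p that the permutation test can give. Adding 1 in place of 0.5 to the counts changed no call.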
